A study of Mus musculus with 74 samples.

Results

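The data described here are 26 of 74 single nuclear profile (1NP) libraries made by genome architecture mapping (GAM), namely those whose positive windows formed the most continuous tracts along the autosomes. They were chosen by their own values in the deposited table of 40 kb windows. For each library, the concordance of adjacent windows on chromosomes 1 to 19 was computed as the chance, in percent, that a neighbour of a positive window was also positive. Libraries at or over 55% with at least 1% of autosomal windows positive were kept and are called continuous profiles. The 43 other libraries at or over 1% coverage served as the contrast, and 5 libraries under 1% entered neither set.

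In GAM, frozen cells are cut into thin cryosections, the slice of a single nucleus is cut out with a laser, and its DNA is amplified and sequenced. A chromosome is a folded polymer confined to its own territory, so a thin slice crosses some chromosomes at several places and passes by others. Neighbouring loci on the fibre tend to enter the slice together, which is why the DNA of a profile lies in tracts rather than in scattered points.

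All 74 libraries came from 46C-ES cells, a mouse embryonic stem cell line of strain 129/Ola in which a Sox1 allele drives green fluorescent protein. The cells were grown with LIF and moved to serum-free medium a day before harvest, and every profile shares that treatment. The labels give a single group, the libraries are named by a prefix (f13 or f14) with a letter and a number, and the study's sample sheet lists both prefixes under the same biological replicate. The libraries are separate slices, so the spread given throughout is that between slices and p-values measure that spread alone. The calls record DNA and not expression, so the cell type could not be checked against marker genes. Reads are not kept in the table, so the depth of each library is unknown.

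The 26 continuous profiles had a concordance of 61.8% ± 4.60 (mean ± SD), from 55.8% in f13c5 through a median of 61.4% to 73.9% in f14c5. The 3 highest were f14c5 at 73.9%, f13f1 at 69.5% and f14b1 at 68.7%, and the 3 lowest were f13c5 at 55.8%, f13c1 at 56% and f13b5 at 56.5%. The values did not leave a wide space at the threshold. The nearest libraries inside it were f13c5 and f13c1, and the nearest outside it were f13a3 at 54.8% and f14d5 at 54.3%. The contrast averaged 41.2% ± 11.4. These values chose the members, so they are given with no test.

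**Figure D1:**
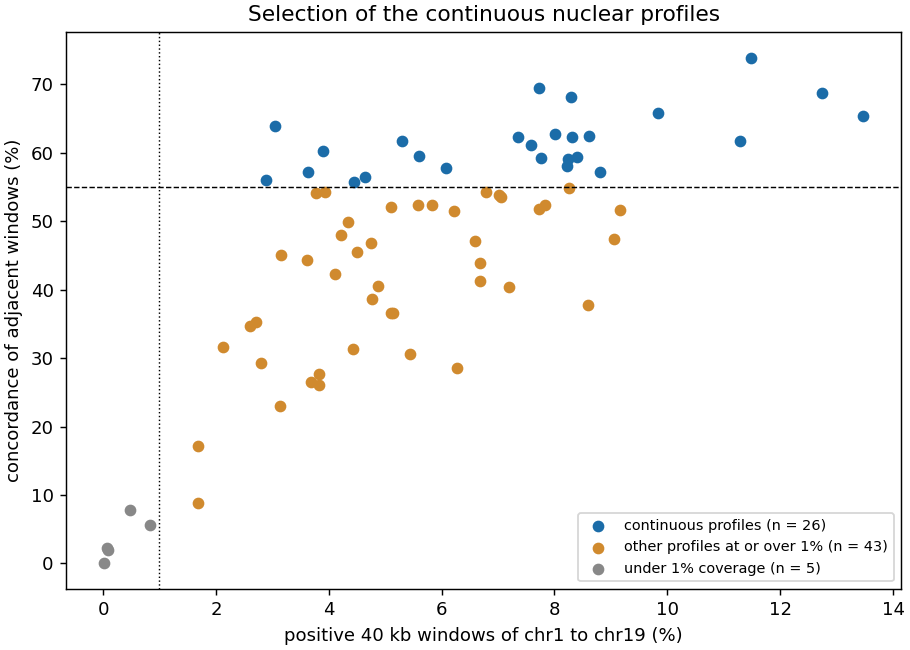
Concordance of adjacent windows (y axis, percent) against the share of autosomal 40 kb windows that were positive (x axis, percent), 1 point per library. The dashed line is the threshold of 55% and the dotted line the coverage minimum of 1%. The continuous profiles lie between 2.88% and 13.5% coverage, and the libraries below the dashed line reach 54.8% concordance.

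A continuous profile held 7.52% ± 2.84 of autosomal windows, from 2.88% in f13c1 through a median of 7.88% to 13.5% in f14b3, where the contrast held 5.16% ± 1.98. In windows this was between 1783 and 8324 of 61816. Coverage and concordance are not independent, because calls placed more densely have more positive neighbours. Of the 26 profiles, 9 had a coverage of 4% to 8%, as did 25 of the contrast.

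Most continuous profiles crossed the larger part of the autosomes. Counting an autosome as hit when at least 1% of its windows were positive, a continuous profile hit 14 ± 3.47 of the 19 autosomes, with a median of 15, and the contrast hit 13.5 ± 3.57. The fewest were hit by f14f1, in which 5 autosomes were positive at this level. Chromosome 5 was positive over 17.1% of its windows there, chromosome 8 over 14.5%, chromosome 1 over 13.5%, chromosome 16 over 8.46% and chromosome 6 over 8.08%. The same profile held 0 positive windows on chromosomes 18 and 19. All 19 autosomes were hit by f13d2 and by f14a6, and the least covered autosome of f13d2 still reached 1.64%. Another count, which asked for a run of at least 10 consecutive positive windows, gave 10.9 autosomes per continuous profile and 4.42 per contrast profile. In f14f1 it gave 6, more than the 5 counted by coverage.

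No autosome was missed by every continuous profile and none was hit by all of them. Chromosome 6 was hit most often, in 23 of 26, followed by chromosomes 1 and 13 in 22 each. Chromosome 8 was missed most often, in 11 of 26, followed by chromosome 14 in 9. Over the 494 combinations of a profile and an autosome, 365 were hits. Coverage under 0.25% made up 18.6% of the combinations, and 7.49% lay between 0.25% and 1%. Among the hits the median coverage was 8.46%, 40 combinations lay between 20% and 30%, and 3 lay at or over 30%. Those 3 were chromosome 18 in f14b3 at 31.9%, chromosome 4 in f13a5 at 30.8% and chromosome 18 in f14d2 at 30.4%. No autosome of a contrast profile reached 30%. The same slice could hold much of 1 chromosome and next to none of another, as in f14d4, where chromosome 3 was positive over 25.7% of its windows and chromosome 2 was not hit.

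**Figure D2:**
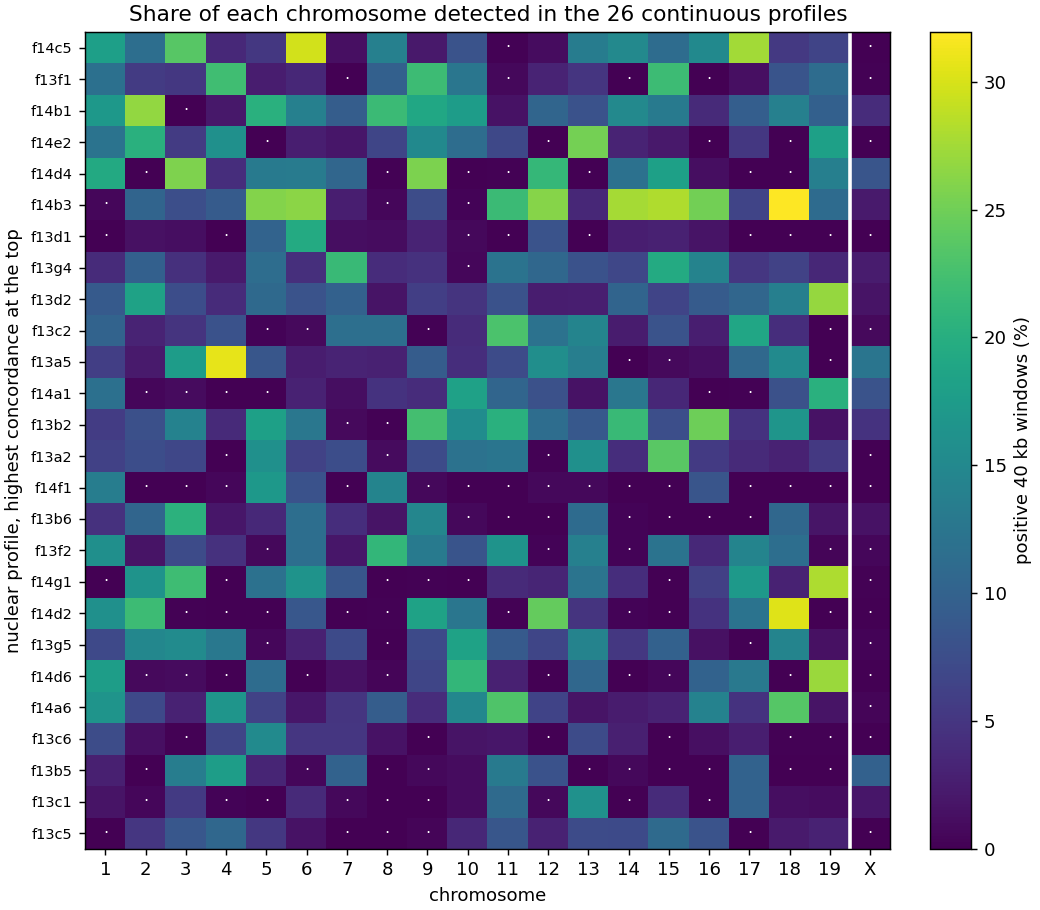
Share of 40 kb windows positive (colour, percent) for each autosome and chromosome X (columns) in the 26 continuous profiles (rows, highest concordance at the top). A white dot marks a chromosome under 1%. The row of f14f1 has 5 autosomes without a dot, and chromosome 8 has a dot in 11 rows.

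Within a chromosome, the positive windows were spread over much of its length. From the first to the last run of at least 2 positive windows, the span of a hit autosome averaged 68.1% ± 10.48 of the sequenced length (mean and SD over 26 profile means), which was 88.7 Mb, and 16.2% ± 4.12 of the windows inside the span were positive. The contrast gave a span of 68.9% ± 10.1, filled to 11.9%. The span depends on which windows set its ends. When any positive window could end it, it was 79.9% of the length in the continuous profiles and 83.3% in the contrast. When a run of at least 5 windows was needed, it was 56.2% and 38.8%, so the sets were close only where shorter runs could set the ends.

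**Figure D3:**
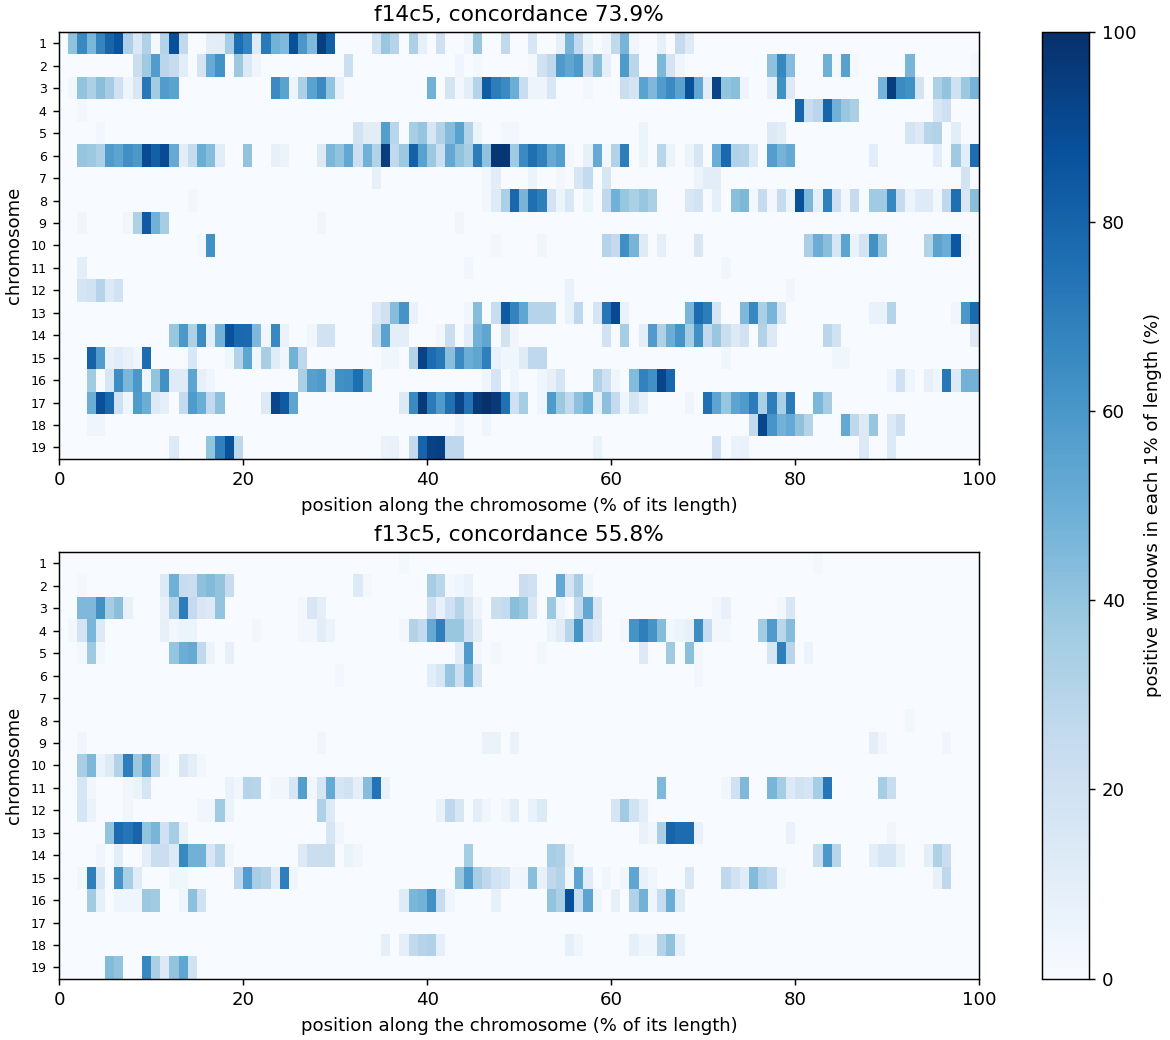
Positive windows along the 19 autosomes in the continuous profiles of highest (f14c5) and lowest (f13c5) concordance. Colour gives the percent of windows positive in each 1% of a chromosome's length, and the x axis is the position along the chromosome in percent of its length. Chromosome 6 of f14c5 (29.7% positive) holds several dark tracts, and chromosomes 7 and 17 of f13c5 hold 0 positive windows.

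Each continuous profile was made of many short runs and a few long ones. A run is an uninterrupted series of positive windows, and its mean length follows from the concordance, so that a profile at the threshold has a mean run of 88.9 kb. The continuous profiles held 1732 ± 565 runs, from 680 in f13d1 to 2882 in f14b3, and the contrast held 1794 ± 592. Of all 45042 runs in the continuous profiles, 46.2% were 1 isolated window, 20.6% were 2 windows long and 38 runs were at least 30 windows (1.2 Mb) long. Runs of at least 30 windows occurred in 13 of the 26 profiles and in 0 contrast profiles. The longest run per profile was 1.25 Mb ± 0.419, from 0.68 Mb in f13g4 through a median of 1.20 Mb to 2.12 Mb in f14b1, against 0.60 Mb ± 0.210 in the contrast.

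Counted by windows rather than by runs, the isolated windows carried 17.9% ± 3.57 of the positive windows, from 8.83% in f14c5 through a median of 17.5% to 23.7% in f13c6. Runs were classed at 1, 2, 3 to 4, 5 to 9, 10 to 19, 20 to 29 and at least 30 windows. Among these unequal classes, runs of 5 to 9 windows carried the most, 26.7% ± 2.58. Runs of at least 10 windows carried 16% ± 7.04, from 7.75% in f13b5 to 34.7% in f14c5. In the contrast the isolated windows carried 38.3% ± 14.3 and the runs of at least 10 windows 3.07% ± 3.11. These shares follow from the rule on chromosomes 1 to 19 and describe the members.

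**Figure D4:**
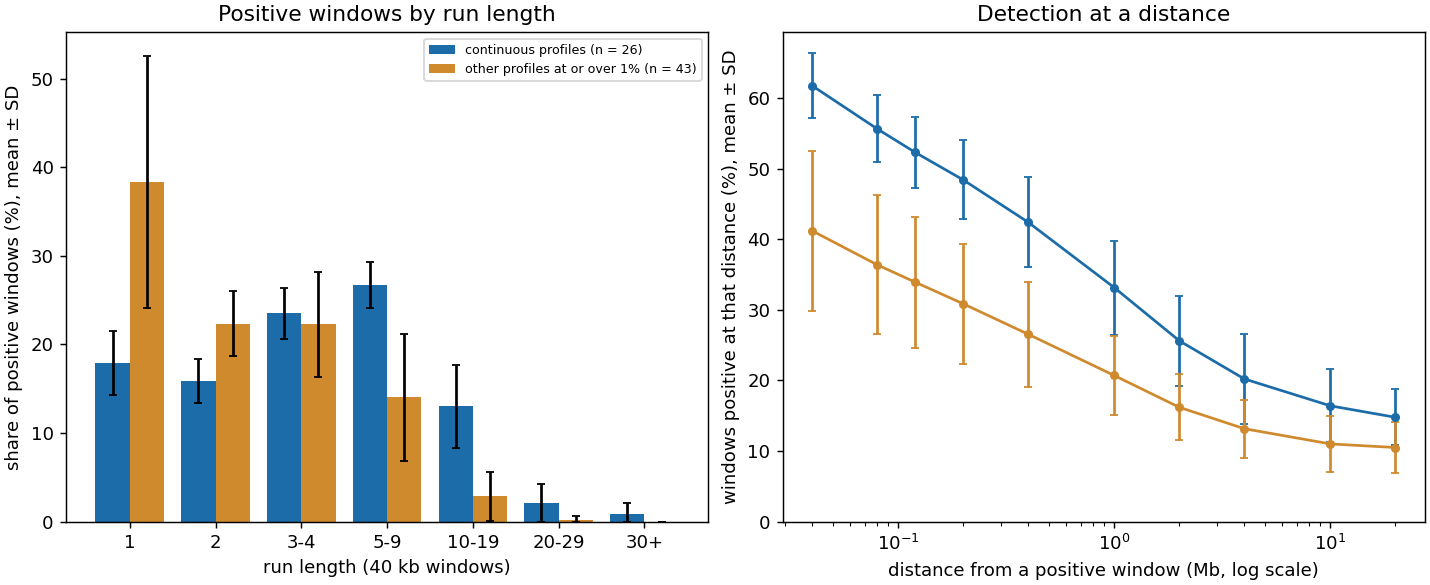
Left, share of positive windows in runs of each length (bars, mean over libraries; error bars, SD, cut at 0). Right, percent of windows positive at a distance from a positive window (points, mean; error bars, SD; log axis in Mb). The continuous profiles fall from 61.8% at 0.04 Mb to 16.4% at 10 Mb, and the contrast from 41.2% to 11%.

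Away from a positive window the chance of another fell slowly. It was 61.8% ± 4.60 at 40 kb, 42.4% ± 6.39 at 400 kb, 33.2% ± 6.65 at 1 Mb and 16.4% ± 5.15 at 10 Mb in the continuous profiles. In all 26, the value at 10 Mb was above the coverage of the profile, by 2.35-fold ± 0.688 on average, as it was in all 43 of the contrast, by 2.26-fold ± 0.755. The contrast gave 41.2%, 26.5%, 20.7% and 11% at the same distances. Divided by each library's own coverage, the values at 40 kb were 9.57 ± 4.22 in the continuous profiles and 8.66 ± 2.86 in the contrast, which overlap widely. At 20 Mb they were 2.16 ± 0.766 and 2.18 ± 0.902. A library's coverage averages in the autosomes that it did not hit, so coverage that differs between chromosomes raises this ratio at every distance. A ratio to the coverage of each chromosome was not computed.

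Runs were often separated by a single negative window. Joining runs over gaps of up to 2 windows (80 kb) and keeping stretches of at least 5 windows (200 kb), a continuous profile held 337 ± 112 stretches that together took in 82.8% ± 3.45 of its positive windows. The contrast held 275 ± 107 stretches with 62.2% ± 15.5. Over all continuous profiles there were 8752 stretches with a median length of 0.40 Mb, of which 1204 exceeded 1 Mb, 204 exceeded 2 Mb and 49 exceeded 3 Mb. Stretches over 1 Mb occurred in all 26 profiles and those over 2 Mb in 24. The longest stretch per profile was 3.80 Mb ± 2.23, from 1.68 Mb in f13c6 through a median of 3.28 Mb to 11.4 Mb in f14d4, and that of the contrast 2.00 Mb ± 0.714.

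The longest stretch of all lay in f14d4 at chr3:74320001-85760000 (mm9). It was 286 windows long, with 247 of them positive, and took in 51 protein-coding genes from Zbbx to Glt28d2, among them the fibrinogen genes Fgg, Fga and Fgb, the glutamate receptor subunit gene Gria2 and Fbxw7, a subunit gene of a ubiquitin ligase. Its longest unbroken run was 46 windows. The fifth longest stretch lay in the same region of another profile, f13b2, at chr3:74200001-79600000, with 113 of 135 windows positive and 17 genes from Zbbx to Rxfp1.

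The second longest lay in f14b1 at chr2:4840001-14880000, 10.0 Mb long, with 228 of 251 windows positive. It took in 53 coding genes from Phyh to Cacnb2, including Gata3, a transcription factor gene of T cells and the ear, and Vim, which encodes the filament protein vimentin. The fourth, also in f14b1, lay at chr7:87080001-92560000 and held 113 positive windows of 137 with 69 coding genes, the DNA helicase gene Blm and the protease gene Furin among them. The third lay in f14d4 at chr1:3000001-9280000 and began with the first sequenced base of that chromosome, next to the centromere, which mouse chromosomes carry near one end. It held 146 positive windows of 157 and 16 coding genes from Xkr4 to Sntg1, with Sox17, a transcription factor gene of endoderm, inside it. Of the 5 longest stretches, 4 were thus in 2 profiles.

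Gaps inside the stretches were 1 or 2 windows long by construction. Negative windows made up 22.9% ± 2.45 of the windows inside stretches, from 16% in f14c5 through a median of 23.5% to 26.7% in f14a6, against 31.4% ± 4.09 in the contrast. The share in the continuous profiles was 14.6% when gaps of 1 window were joined and 35.7% when gaps of up to 5 were. Single windows were 69.5% of the 22496 gaps, and 9.34% of the stretches had no gap. Of the 29354 negative windows inside stretches, 0.589% held an unknown base, against 0.446% of all windows inside them, and the part of unknown bases in the gaps was not tested. The base composition of gaps and positive windows was close. The GC content of positive windows inside stretches was 42.1% ± 0.634 and that of the gaps 42.1% ± 0.582, with a difference within profiles of -0.00957 percentage points ± 0.211. The positive windows had the higher GC content in 15 of the 26 profiles.

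Of 23283 windows that were a gap at least once, 5156 (22.1%) were a gap in 2 or more continuous profiles. Of these, 803 were a gap in 3 or more profiles, and 196 of these were a gap in every continuous profile whose stretch lay over them. The most frequent was chr15:8960001-9000000, a window overlapping Ranbp3l with 12.5% unknown bases, which was a gap in 6 of 6 profiles. Another 9 windows were a gap in 5 profiles, and 3 of them in 5 of 5. These were chr17:24360001-24400000 at Ccnf, which encodes a cyclin-type F-box protein, chr2:32600001-32640000 at Sh2d3c and neighbouring genes, and chr5:109240001-109280000 at the vomeronasal receptor gene Vmn2r9. All 3 are free of unknown bases, with GC contents of 47.7%, 52.6% and 38.6%. Across all 74 libraries they were positive in 2, in 1 and in 1. With 29354 gap calls over 61816 autosomal windows, some recurrence follows from the number of calls alone. The counts for calls placed independently of each other were not computed, and the recurrence of gaps was not tested.

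At a few places the same isolated window recurred in several profiles. Of 20791 isolated calls in the continuous profiles, 148 fell on 15 windows that were isolated in at least 5 profiles. The window chr2:98480001-98520000 was isolated in 23 of the 26 and positive in all 26, and it was positive in all 74 libraries. The window chr6:103560001-103600000 in Chl1, a cell adhesion gene, was isolated in 19, chr9:3000001-3040000 in 18, chr9:35080001-35120000 in 14 and chr12:3080001-3120000 in 12. The first 4 of these were isolated in 37, 33, 21 and 18 of the 43 contrast profiles, and chr12:3080001-3120000 in 4.

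Sequence from 2 of these windows is shown because the windows share a repeat. Mouse pericentromeric DNA consists of long tandem arrays of the major satellite, nearly all of which are left out of the assembly, and a few copies lie inside assembled sequence. The window on chromosome 9 matched itself at a shift of 234 bases over 69.4% of its length and over 97% in its best 400 bases. The window on chromosome 2 matched itself best at another shift, 251 bases, over 28.4% of its length and over 74.5% in its best 400 bases. The share of the length was close to that of the Chl1 window (27.6%), chr9:35080001-35120000 (25.9%) and chr12:3080001-3120000 (26.3%), each at its best shift. In their best 400 bases these matched over 39.5%, 52% and 41.25%. The stretches printed are plus-strand reference sequence (NCBIM37, the sequence of mm9), with capitals for bases that lie in a 16-base word found on either strand of the other window. The chromosome 2 window overlaps the coding gene models Gm10801 and Gm10800. The chromosome 9 window overlaps several, Gm10722 and Gm11168 among them.
chr2:98502429-98502608: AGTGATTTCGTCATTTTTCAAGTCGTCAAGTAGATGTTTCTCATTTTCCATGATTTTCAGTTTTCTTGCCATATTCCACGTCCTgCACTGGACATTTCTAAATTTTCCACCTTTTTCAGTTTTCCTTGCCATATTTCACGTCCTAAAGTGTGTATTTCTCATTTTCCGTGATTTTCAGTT
chr9:3000449-3000628: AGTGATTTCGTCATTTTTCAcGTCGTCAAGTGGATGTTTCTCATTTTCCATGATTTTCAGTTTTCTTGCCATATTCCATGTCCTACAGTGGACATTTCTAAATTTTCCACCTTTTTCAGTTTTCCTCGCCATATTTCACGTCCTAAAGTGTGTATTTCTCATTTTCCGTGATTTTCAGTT

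In both stretches 179 of 180 bases were shared in this way, and over the whole chromosome 2 window the number was 1495 bases. Of the other 3 most frequent isolated windows, chr9:35080001-35120000 shared up to 178 bases within 180 with the chromosome 9 window and chr12:3080001-3120000 shared 180, whereas the Chl1 window shared 16. Among 199 autosomal windows taken at even steps along the genome, the most shared within 180 bases was 20, and among the 15 most frequent gap windows it was 18. Of 32-base words sampled every 50 bases, a median of 35.2% occurred more than once in the genome for the 15 recurrent isolated windows. The median was 13% for the 15 gap windows and 10.0% for the evenly spaced windows. Among the 5 most frequent isolated windows, the Chl1 window at 5.38% and chr9:35080001-35120000 at 4.88% were below all of these medians. Leaving out every window positive in over 15 libraries kept the same number of continuous profiles, 26, with an isolated share of 17.8%.

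Genes were held whole more often in the continuous profiles. A profile touched 2158 ± 723 autosomal coding genes with at least 1 positive window, from 863 to 3770, and held every window of 1287 ± 454 of them. This was 59.3% ± 3.31 of the genes touched, against 45.7% ± 7.34 in the contrast, and like the run lengths it describes the members. Together the 26 profiles detected 84.4% of autosomal windows and touched 91.3% of 21418 autosomal coding genes, with a mean of 2.62 profiles per gene. A pair of continuous profiles shared a median of 3.92% of the windows positive in either, and 8.77% at most. Pairs of the same coverages placed independently of each other would share a median of 3.52% and at most 7.003%, and the difference was not tested.

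Of 14 genes listed for pluripotency that could be matched by symbol, 12 were touched by a continuous profile (85.7%), with a mean of 2.14 profiles per gene. This was near the 91.3% and 2.62 of all autosomal coding genes. Pou5f1, which encodes the core factor Oct4, was positive in f13c2 within a run of 11 windows and in f13c1 within a run of 5. Nanog was positive in 4 profiles, in f13d1 within a run of 11 windows and in the other 3 as an isolated window. Prdm14, a repressor of differentiation genes, lay in a run of 35 windows in f14c5 and of 14 in f14a6. Nr5a2, a nuclear receptor gene 4 windows long, was touched by 8 profiles and whole in 2. Zfp42 and Tdgf1 were positive in 0 of the 26, which allows a share of up to 11.5%, and in 2 and 3 of the 43 contrast profiles.

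All 7 matched genes of early lineages were touched, with a mean of 3.29 profiles per gene, where 91.3% of all autosomal coding genes were touched with a mean of 2.62. Eomes, a T-box factor of mesendoderm, was positive in 6 of the 26 continuous profiles and in 2 of the 43 contrast profiles. The counts went the other way for Gata4, a factor of endoderm, touched by 1 of 26 and 6 of 43. They did so too for T, the mesoderm factor brachyury, touched by 2 of 26 and 5 of 43. No mean per gene is given for the contrast, and these counts were not tested. Gata6, a factor of primitive endoderm, was touched by 5 profiles and lay in a run of 45 windows, 1.80 Mb, in f14d2. Sox17 lay in a run of 42 windows in f14d4, inside the stretch at the start of chromosome 1 described above.

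The 8 long neuronal genes that could be matched have a median length of 1628 kb and encode adhesion and synaptic proteins in the main. They were touched by a mean of 6 profiles per gene, against 2.62 over all autosomal coding genes, and none was whole in a continuous profile. Over all autosomal coding genes, with a median length of 15.5 kb, 75.4% were whole in at least 1 of them. The highest share was 69% of the 29 windows of Ctnna2. Cntnap2, which spans 57 windows, was touched by 10 profiles and covered to 56.1% at most. Csmd1 was touched by 1 of the 26 continuous profiles and by 14 of the 43 contrast profiles, and the other 7 genes by 2 to 10 and by 10 to 21. The sets differ in size, no mean per gene is given for the contrast, and these counts were not tested.

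The Hox clusters, in which the patterning genes of the body axis lie side by side, are 4 or 5 windows long. Hoxd was held whole in f13c2, within a run of 12 windows, and was touched by 5 other profiles. Hoxb was touched by 6 profiles and was positive over 4 of its 5 windows in f13a5, f13b2 and f13c1. Hoxa was touched in 2 profiles with 1 window each, and Hoxc in f13c1 alone over 3 of its 4 windows. The contrast touched Hoxa in 2 profiles, Hoxb in 7, Hoxc in 7 and Hoxd in 5. In the contrast, 1 profile held Hoxa whole, and 0 held another cluster whole. Over all autosomal windows, the mean was 1.96 continuous and 2.22 contrast profiles per window. A locus of 4 or 5 windows can be touched at any of them. No background for loci of that length is given, and the counts were not tested.

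Measures that did not choose the libraries were compared in 11 tests, with p-values adjusted over all of them by the Benjamini-Hochberg method. Of these, 5 ask whether the continuity carries over to other sequence, and 6 concern coverage of X, Y, the name prefix, autosomes hit, their coverage and GC content. For 7 of the tests, the libraries were chosen again on the 10 odd-numbered autosomes alone, at the same threshold, and their values were then read from the 9 even-numbered ones. This choice took 29 libraries, all 26 continuous profiles and 3 more, and left 40. On the even autosomes the 29 had a concordance of 59.6% ± 6.23, from 49.5% to 74%, and the 40 had 40.3% ± 11.1, from 10.3% to 56.8%. The difference was 19.3 percentage points, larger than the spread between libraries (permutation test, two-sided, p = 1e-05, the smallest that 100000 resamples can give, adjusted p = 2.75e-05). All 29 lay above the median of the 40, and the ranges overlapped. The difference was 11.9 points among f13 libraries, 24.5 among f14 libraries and 14.1 among libraries of 4% to 8% coverage. Over the 69 libraries, concordance on the odd and on the even autosomes correlated with r = 0.952, and the rule that chose the 26 had read both. The comparison thus shows that a library's continuity is alike on both sets of autosomes. It is no independent support for the choice of the 26.

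The other measures of continuity differed too. They were read from the same calls as the concordance and are tied to it, so they largely restate that result. On the even autosomes, runs of at least 10 windows carried 14.4% ± 8.89 of positive windows in the 29 libraries and 2.96% ± 3.63 in the 40 (permutation test, adjusted p = 2.75e-05). Isolated windows carried 20.05% ± 5.28 and 39.4% ± 13.98 (permutation test, adjusted p = 2.75e-05). Negative windows made up 23.6% ± 3.18 and 31.4% ± 4.10 of the windows inside stretches (permutation test, adjusted p = 2.75e-05). All 3 differences passed the threshold also among libraries of 4% to 8% coverage, and within f13 and within f14.

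The number of chromosomes did not differ beyond the spread. The 29 libraries hit 6.55 ± 1.97 of the 9 even autosomes and the 40 hit 6.42 ± 1.77 (permutation test, adjusted p = 0.888). The coverage of the even autosomes hit was 9.46% ± 4.19 against 6.70% ± 2.37, a difference of 2.76 percentage points (permutation test, adjusted p = 0.00136). That difference did not hold in all libraries. It was 0.637 points among f13 libraries (adjusted p = 0.775 by permutation) and 1.49 points at a coverage of 4% to 8% (adjusted p = 0.205 by permutation). Among f14 libraries it was 5.71 points. The GC content of positive windows was 41.8% in both sets, with SDs of 0.722 and 0.561 (permutation test, adjusted p = 0.905). The chosen libraries differed from the others by 0.456 points within f13 (permutation test, adjusted p = 0.0454) and by -0.478 points within f14 (permutation test, adjusted p = 0.0585), and the contrast between the prefixes was not tested.

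**Figure D5:**
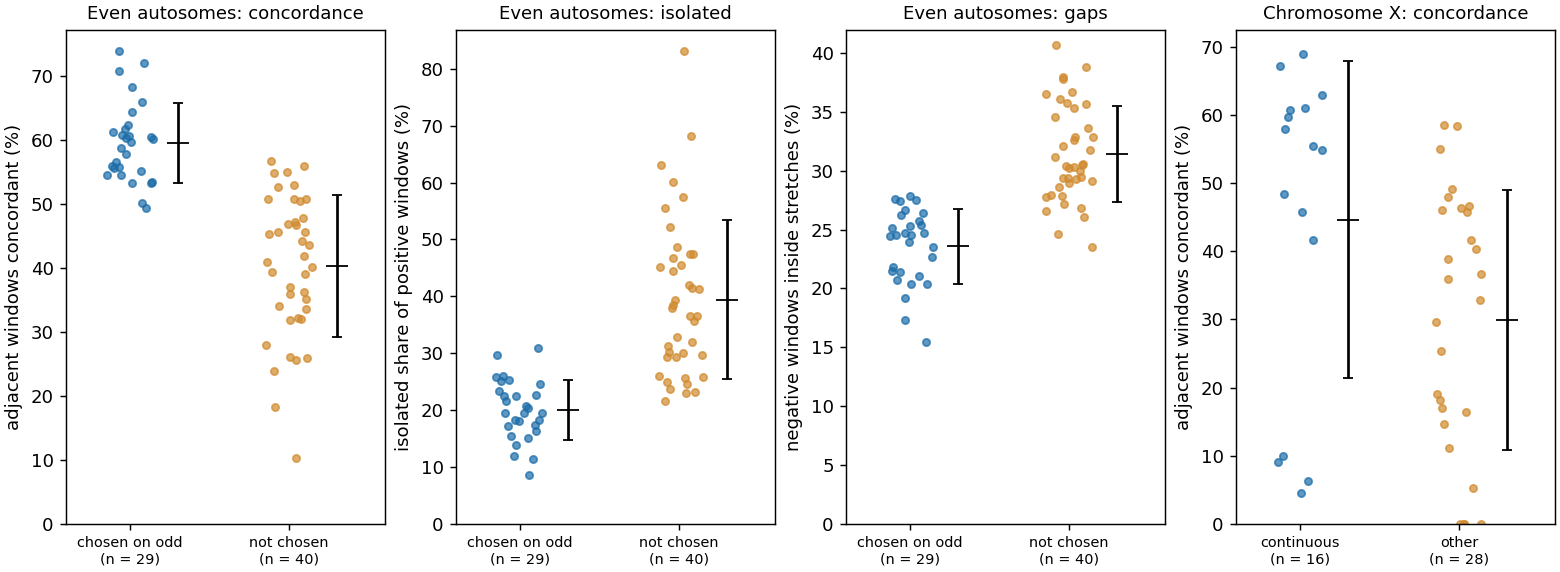
Values per library (points), with the mean and SD beside them. The first 3 panels give the even autosomes for the 29 libraries chosen on the odd autosomes and for the 40 others, as concordance, isolated share of positive windows and share of negative windows inside stretches, in percent. The fourth panel gives the concordance on chromosome X for the continuous profiles and the contrast with at least 10 positive X windows, where 4 of the 16 continuous profiles lie at or under 10.0% and the other 12 at or over 41.7%.

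Chromosome X, which the rule did not use, was hit in fewer continuous profiles than any autosome. It was hit in 11 of the 26, where chromosome 8, the least often hit autosome, was hit in 15, and in 20 of the 43 contrast profiles. Its coverage in the continuous profiles ran from 0% through a median of 0.456% to 12.5% in f13a5, with a mean of 2.32% ± 3.52. The contrast had a mean of 2.13% ± 2.79 and a median of 0.912%, and the difference was within the spread (permutation test, adjusted p = 0.888). The values were graded, with f13c2 at 0.840% and f13b6 at 1.61% between the profiles with fewest and most X windows. In f13a5, X held 519 positive windows and a stretch of 3.96 Mb, and f13b5 held 412 with a stretch of 2.52 Mb. In f14c5, the profile of highest concordance, X held 0.

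The concordance on X could be read in 16 continuous profiles and 28 of the contrast, those with at least 10 positive X windows. It was 44.7% ± 23.3, from 4.55% in f13f2 to 69% in f14b1, against 29.9% ± 19.1, from 0% to 58.5%. The difference of 14.8 percentage points did not pass the threshold after adjustment (permutation test, p = 0.0289, adjusted p = 0.0530). The ranges overlap, and 12 of the 16 lay above the contrast median of 34.4%. The 4 low values came from profiles with 10 to 22 positive X windows. The result moved with the threshold that chose the profiles. It was 23 points at a threshold of 0.50 (permutation test, adjusted p = 0.000682) and 24.8 points at 0.60, where 9 profiles had 54.97% and 35 had 30.2% (exact permutation test, adjusted p = 0.00247), and both passed. Asking for at least 20 positive windows left 13 and 24 profiles with 53% and 33.6%, and the difference of 19.4 points passed (permutation test, adjusted p = 0.00579). With at least 5 positive windows it was 11.6 points and did not pass (permutation test, adjusted p = 0.134). For medians it was 20.8 points (permutation test, adjusted p = 0.101). It was 12.2 points within f13 with 10 profiles in each set (exact permutation test, adjusted p = 0.332) and 13.8 points within f14 with 6 against 18 (exact permutation test, adjusted p = 0.263). At 4% to 8% coverage it was 15.3 points with 5 against 17 (exact permutation test, adjusted p = 0.212). None of these 4 passed the threshold, and neither did the minimum of 5 positive windows. The sizes of these differences ran from 11.6 to 20.8 points.

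Chromosome Y was seen in part of the slices. Of the 26 continuous profiles, 6 had a positive window among the 64 Y windows free of unknown bases, as had 13 of the 43 contrast profiles, and the difference did not pass the threshold (Fisher's exact test, two-sided, adjusted p = 0.808). Over all Y windows, those with unknown bases included, the shares were 42.3% and 41.9%. Among the 64 windows free of unknown bases, f13c5 had 16 positive, f13g5 had 6, and f13f1, f13d2, f14g1 and f14d6 had 1 each. The prefix of the library names divided the sets unevenly, and whether this passed depended on the concordance threshold. Of 31 f13 libraries 15 were continuous (48.4%), and of 38 f14 libraries 11 were (28.9%; Fisher's exact test, two-sided, adjusted p = 0.212). Put the other way, f13 made up 57.7% of the continuous profiles and 37.2% of the contrast, a difference of 20.5 points that did not pass. At a concordance threshold of 0.50 the shares were 58.97% of 39 and 26.7% of 30. The difference of 32.3 points passed (Fisher's exact test, two-sided, adjusted p = 0.0256). At 0.60 the shares were 53.3% of 15 and 42.6% of 54. That difference of 10.7 points did not pass (Fisher's exact test, two-sided, adjusted p = 0.808).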

How the data were processed

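The authors deposited a table of 0 or 1 calls (another unit than counts: 1 where a 40 kb window of mm9 was called positive in a library) for 74 libraries. The submitters' processing notes name Bowtie2 2.1. The methods for multiplex libraries describe duplicate removal and window calls in GAMtools at a set number of reads; the settings and quality criteria for these 1NP calls are not given in the sources used here. The depth is unknown, its relation to the tracts was not tested, and no interval on depth is given.

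All 74 columns matched a sample. Reference NCBIM37 chromosome lengths equalled the window ends, and GENCODE vM1 gave the coding genes. Members and gene lists were chosen with earlier results of these data known. Tests were two-sided permutation tests of means (100000 resamples, NumPy 2.4.6) or Fisher's exact test (SciPy 1.17.1), adjusted by Benjamini-Hochberg over 11 tests, threshold 0.05. Functions were tested on simulated profiles. Named were the 3 highest and 3 lowest members, the 2 libraries nearest the threshold on each side, the profiles with most and fewest autosomes hit, the 5 longest stretches, the 3 most frequent gap windows with ties and the listed genes; other libraries, genes and isolated windows were named after their values were seen. The symbols Sox1 and Tfcp2l1 had no match, Ptprd had 2 and Magi2 had 3, and these were left out.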

Additional observations from a re-analysis of the deposited data

Results flagged for a closer look

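The mitochondrial sequence, a single window outside the autosomes and sex chromosomes, was positive in 26 of the 26 continuous profiles and in all 43 contrast profiles. It was also positive in the 5 libraries under 1% coverage, f13f3 with 13 positive autosomal windows among them, so the call was the same in all 74 libraries. It stands out as a signal outside the chromosomes compared above, and no control without cells was analysed here.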

How the results depend on the processing

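Of 95 alternatives over 19 results, 68 kept their sign and call, stayed within the spread or, for the number of profiles, within 1.5 times. 1 was added after seeing the data. The threshold of 0.60 left 15 continuous profiles and that of 0.50 gave 39. Held-out concordance, long runs, isolated share and gap share, which are tied to each other, passed under every alternative run. The X concordance difference passed at thresholds of 0.50 (23 points) and 0.60 (24.8) and with at least 20 (19.4) or 40 (18.9, added later) X windows. The prefix passed at 0.50 (a difference of 32.3 points). X coverage reversed within f14 (-0.188 points), at 4% to 8% coverage (-0.718) and for medians (-0.456). The Y difference reversed over all Y windows (0.447 points). Autosomes hit on the even set reversed within f13 (-0.546) and at 4% to 8% coverage (-0.808). Coverage of the even autosomes hit lost its call within f13 (0.637 points) and at 4% to 8% coverage (1.49). The GC difference reversed at thresholds of 0.50 (-0.103) and 0.60 (-0.177), within f14 (-0.478) and with odd and even exchanged (-0.180), and passed within f13 (0.456). The causes were not tested. Counting a hit at 5% of windows gave 9.62 autosomes, leaving out isolated windows 933 runs, and ends set by all positive windows or by runs of 5 a span of 79.9% or 56.2%. Joining no gap gave a longest stretch of 1.25 Mb and joining 5 windows 6.33 Mb. Joining 1 or 5 windows gave a gap share of 14.6% or 35.7%. No paired analysis was possible between the sets because each library lies in 1 set. The unknown depth limits all values.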

Other observations

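The number at the end of a library's name, whose meaning the labels do not give, was spread unevenly over the sets, a count looked at after the values were seen and not tested. Libraries with the number 1 were continuous in 7 of 12 cases, those with 2 in 7 of 11 and those with 5 in 5 of 9. With the number 3 it was 1 of 9, with 4 it was 2 of 12, with 6 it was 4 of 11 and with 7 it was 0 of 5. Over all numbers it was 26 of 69. The letters ranged from 1 of 8 continuous libraries for e to 5 of 10 for c and 3 of 6 for g.

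The concordance computed on the odd and on the even autosomes differed by a median of 2.31 percentage points within a library, and by 13 points at most, in f14d3.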
